A study of Homo sapiens with 8 samples.

Results

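The FOS and JUN genes of AP-1 and the early response genes EGR1, IER2 and IER3 were followed in the Ewing sarcoma cell line SK-N-MC in 16 h of hypoxia and under repression of the LOXHD1 enhancer. The set was chosen by gene name and holds 10 genes of the 60332 in the table: FOS, FOSB, FOSL1 and FOSL2, JUN, JUNB and JUND, and EGR1, IER2 and IER3. RNA was sequenced in 8 libraries, 2 in each of 4 groups, and the values are FPKM, fragment counts scaled to transcript length and between libraries. Control cells in normoxia and control cells in hypoxia (1% oxygen for 16 h) carried an empty-vector dCas9-KRAB, a Cas9 that no longer cuts DNA joined to a repressor domain that silences the chromatin where a guide brings it. The eKD1 and eKD2 cells carried the same repressor with a different guide each, both placed next to the GGAA repeat that acts as the LOXHD1 enhancer, and all their libraries analysed here are from hypoxia. All groups thus share lentiviral dCas9-KRAB and puromycin selection. The cells are selected pools used within few passages, and the library preparation kept poly-A RNA.

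AP-1 is a family of dimers of basic leucine zipper proteins. JUN proteins pair with each other or with FOS proteins, while FOS proteins need a JUN partner, and the dimers bind the TGACTCA element, known as the TRE, or the closely related TGACGTCA element, known as the CRE. Many of these genes are immediate early genes, which are induced within minutes by growth factors or stress through MAP kinases, serum response factor (SRF) and its CArG boxes, often fall back soon after, and have short-lived RNAs. In hypoxia, JUN and FOS proteins are known partners of the hypoxia inducible factors at many promoters.

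The promoters of the genes on which the results turn are shown because they carry different regulatory elements. A RefSeq promoter (GRCh38.p14, 250 bases before to 50 bases after the start) was matched for 8 of the 10 genes, the others being FOSL1 and IER3. Each is written 5′ to 3′ on the strand of the gene. The capitals mark the TRE-like TGACATCA in JUN, the TRE TGACTCA in FOSL2, the CRE TGACGTCA in JUND and the 2 CArG boxes in EGR1. The windows are chr1:58783998-58784297 on the minus strand for JUN, chr19:18281573-18281872 on the minus strand for JUND, chr2:28392608-28392907 on the plus strand for FOSL2 and chr5:138465229-138465528 on the plus strand for EGR1.
JUN: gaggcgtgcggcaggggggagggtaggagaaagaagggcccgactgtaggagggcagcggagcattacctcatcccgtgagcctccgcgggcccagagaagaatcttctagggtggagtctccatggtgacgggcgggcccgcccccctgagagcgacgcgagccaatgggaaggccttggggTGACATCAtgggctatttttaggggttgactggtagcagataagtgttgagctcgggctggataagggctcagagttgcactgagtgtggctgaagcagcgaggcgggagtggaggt
JUND: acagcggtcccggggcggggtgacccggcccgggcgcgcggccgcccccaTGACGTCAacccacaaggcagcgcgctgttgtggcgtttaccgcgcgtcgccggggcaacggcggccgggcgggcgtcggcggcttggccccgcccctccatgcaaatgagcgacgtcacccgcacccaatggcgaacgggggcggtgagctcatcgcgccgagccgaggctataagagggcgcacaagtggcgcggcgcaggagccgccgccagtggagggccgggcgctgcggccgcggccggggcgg
FOSL2: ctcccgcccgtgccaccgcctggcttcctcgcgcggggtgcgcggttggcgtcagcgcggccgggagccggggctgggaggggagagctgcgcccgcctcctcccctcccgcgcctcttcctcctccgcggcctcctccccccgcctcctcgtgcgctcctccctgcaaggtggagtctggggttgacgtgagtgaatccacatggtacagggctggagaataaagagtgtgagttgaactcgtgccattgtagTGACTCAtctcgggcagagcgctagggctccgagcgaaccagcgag
EGR1: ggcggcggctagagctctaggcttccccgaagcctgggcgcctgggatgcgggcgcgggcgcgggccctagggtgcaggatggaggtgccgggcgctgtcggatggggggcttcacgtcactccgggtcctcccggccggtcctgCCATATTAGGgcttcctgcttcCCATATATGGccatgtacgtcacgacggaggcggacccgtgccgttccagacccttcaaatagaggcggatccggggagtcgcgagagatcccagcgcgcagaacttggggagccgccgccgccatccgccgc
Both strands were searched. The JUN element lies at -67 to -60 from the start, and 2.61% of 35116 promoters hold TGACATCA. The JUND element lies at -200 to -193, and 1.85% hold TGACGTCA. The FOSL2 element lies just past the start, at 5 to 11, and 4.95% hold TGACTCA. The CArG boxes of EGR1 lie at -105 to -96 and at -83 to -74, and 1.29% of promoters hold such a box. None of these 4 elements was found in the windows of FOS, FOSB, JUNB and IER2. Elements more than 250 bases before the start were not searched, so these genes may hold them further out. The letters ACGTG, the core of many hypoxia response elements, were found in FOSL2, EGR1 and IER2 and in 21.4% of all promoters. The wider form of this core, ACGTG or GCGTG, was found in all of the 8 windows except that of JUND, and in 48.4% of all promoters. A match is a description of letters and no evidence of binding.

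The target of the repressor was lower in the libraries that carry guides: LOXHD1 was at 156 and 169 FPKM in control normoxia, 93 and 91.1 in control hypoxia, 17.3 and 15 in eKD1 and 11.7 and 11.8 in eKD2. The summed level of 7 Ewing sarcoma markers was between 1146 and 1427 FPKM in every library, much of it from CCND1, at 566 to 860 FPKM. All 7 were expressed. In hypoxia limma called 5 of them lower and 1 higher at an adjusted p under 0.05, with a median change of -0.74. Of all tested genes, 16.0% were called lower and 16.2% higher. Among the called falls was FLI1, at 36.7 and 36.5 FPKM in control normoxia and 20.8 and 22.2 in control hypoxia. In eKD2 against control hypoxia, 3 were called higher and 1 lower, beside 5.80% and 3.81% of all tested genes. Among the markers of other cell types, the fibroblast genes DCN and LUM were at 131 to 153 and 37 to 52 FPKM, the epithelial gene EPCAM at 3.39 to 5.8 and the endothelial gene CDH5 below 1, and the list summed to 186 to 212 FPKM. Of these, the leukocyte gene PTPRC was at 22.5 and 23.8 FPKM in control normoxia, 4.87 and 5.39 in control hypoxia, 10 and 9.59 in eKD1 and 14.3 and 13.5 in eKD2, and its part in the results was not tested. Duplicates correlated across genes at 0.954 to 0.963. Relative depth, read from the low values, ran from 55.9% in replicate 2 of control normoxia to 100% in replicate 1 of control hypoxia. The duplicates are described as biological, and p-values measure only the spread between these libraries.

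Of the 10 genes, 7 passed the filter of at least 1 FPKM in at least 2 libraries, and these were at 1.71 FPKM or higher in every library. FOSB, FOSL1 and EGR1 were at 0.71 FPKM or lower in every library and were left out of the tests across genes. Changes are given as differences of log2(FPKM + 1), which understates those of low genes, with limma's standard error, its 95% interval and its p adjusted by Benjamini-Hochberg over the full set of 15372 tested genes. Genes with an adjusted p below 0.05 are described as called. In bulk RNA, fewer cells that express a gene and less RNA per cell cannot be told apart.

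**Figure D1:**
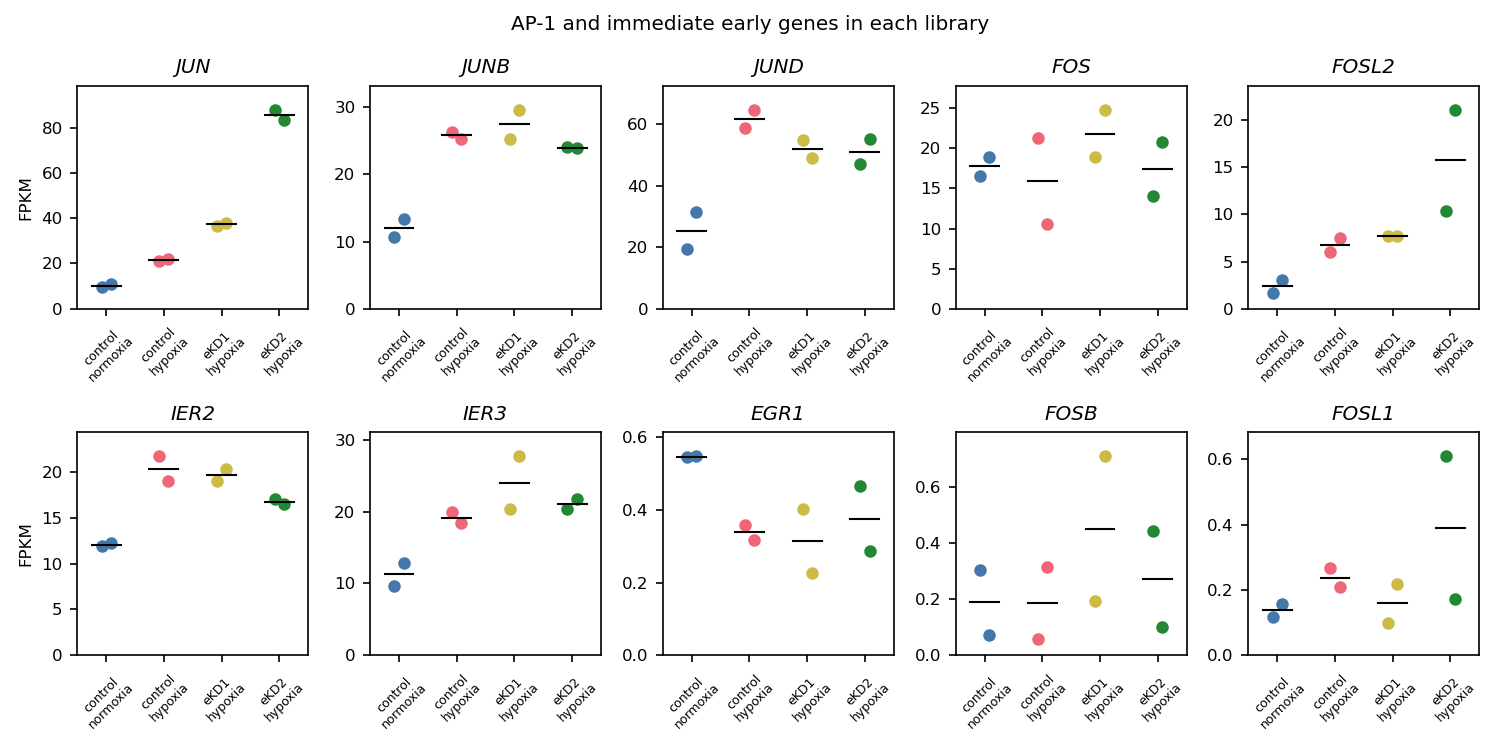
FPKM of the 10 genes (vertical axis, linear, from 0, with its own range in each panel) in the 4 groups; each point is 1 library and each bar the mean of 2. JUN forms 4 separate pairs that climb from 9.75 and 10.7 FPKM to 87.8 and 83.3 FPKM, whereas the FOS pairs overlap and FOSB, FOSL1 and EGR1 stay below 1 FPKM.

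Among the genes of the JUN family, JUN itself had the widest range. JUN (ENSG00000177606.6_2), the founding AP-1 subunit and a target of the stress kinase JNK, is a gene of a single exon on chromosome 1 at 59242517 to 59249720, minus strand (GRCh37), with no other gene overlapping it. Its FPKM was 9.75 and 10.7 in control normoxia, 21.1 and 21.9 in control hypoxia, 36.7 and 38 in eKD1 and 87.8 and 83.3 in eKD2. The group means were 10.2 ± 0.657, 21.5 ± 0.56, 37.4 ± 0.898 and 85.6 ± 3.23 FPKM (SD, n = 2). Every pair of libraries lay apart from the next pair, in the order control normoxia, control hypoxia, eKD1 and eKD2. Of all tested genes, 35.9%, 27.6% and 31.9% lay apart upward at these steps in turn, and the share with the whole order was not computed. Ranked among the tested genes by mean level, JUN stood at percentile 45.4 in control normoxia and at percentile 87.9 in eKD2, where its mean was 8.37 times that of control normoxia.

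JUNB, a partner that is often a weaker activator than JUN, followed another course. Its level was 10.7 and 13.3 FPKM in control normoxia, 26.3 and 25.3 in control hypoxia, 25.3 and 29.6 in eKD1 and 24 and 23.9 in eKD2. All hypoxic libraries of JUNB were above both normoxic libraries, and the hypoxic groups lay close to each other, with eKD2 just below the rest. For control hypoxia alone, 35.9% of all tested genes lay above normoxia in this way. The share for all hypoxic libraries was not computed. JUNB lies on chromosome 19 at 12902300 to 12904129, plus strand, and overlaps HOOK2 on the other strand. The use of strand in counting is not given in the sources used here, so reads of the overlap may not be told apart. The same holds for the overlaps of FOSB, FOSL2, IER2 and IER3 given below.

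JUND, the member of the family that is usually expressed steadily, was the most abundant JUN gene in control cells. It lies on chromosome 19 at 18390504 to 18392432, minus strand, without an overlapping gene. JUND was at 19.3 and 31.3 FPKM in control normoxia, 58.8 and 64.6 in control hypoxia, 54.8 and 49 in eKD1 and 46.9 and 55.2 in eKD2. Both eKD pairs lay between the control normoxia pair and the control hypoxia pair and overlapped each other.

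The makeup of the JUN family RNA was also followed. JUN took 24.5 and 19.3% of the FPKM summed over JUN, JUNB and JUND in control normoxia, 19.9 and 19.6% in control hypoxia, 31.5 and 32.6% in eKD1 and 55.3 and 51.3% in eKD2. JUND took 48.5 and 56.6%, 55.4 and 57.7%, 46.9 and 42%, and 29.6 and 34% in the same order. JUND thus held the largest share in all libraries of control and eKD1 cells, and JUN in both libraries of eKD2. The family sum was 47.6 ± 11 FPKM in control normoxia, 109 ± 4.03 in control hypoxia, 117 ± 0.164 in eKD1 and 161 ± 2.56 in eKD2 (SD, n = 2). The JUN share of both eKD1 libraries lay above that of both control hypoxia libraries. These shares are given as a description, with no test.

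**Figure D2:**
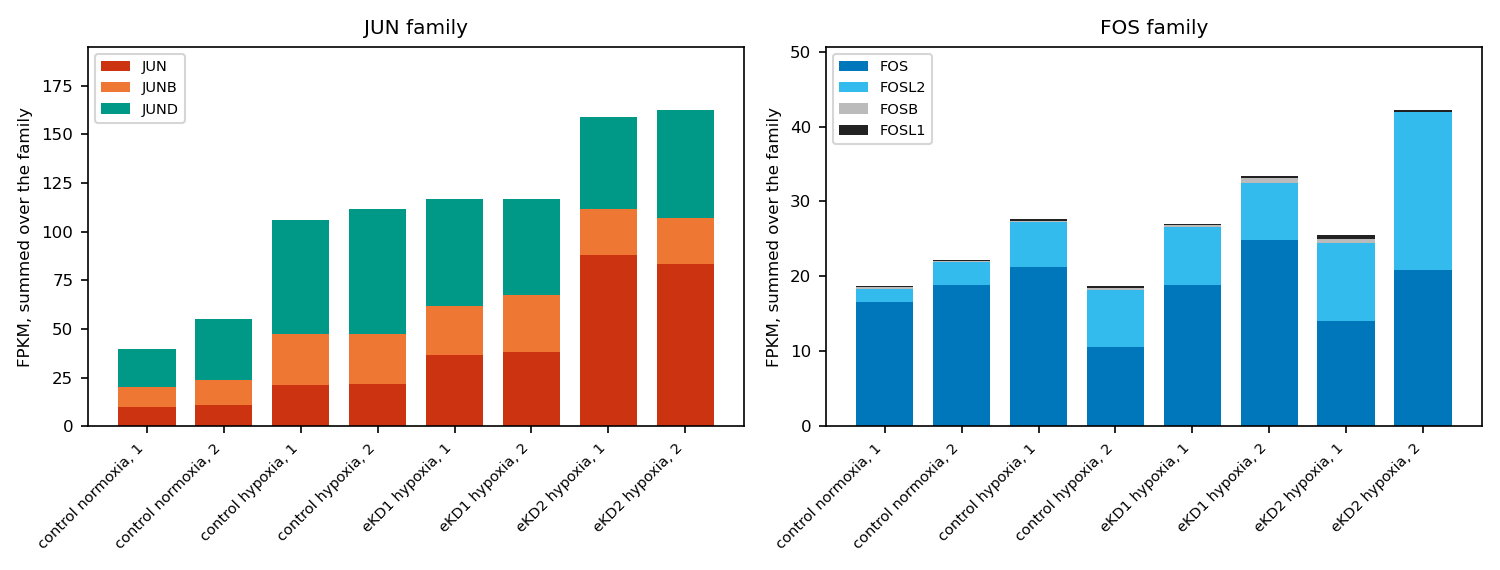
FPKM summed over the JUN family (left) and the FOS family (right), from 0 on linear axes that differ between panels; each bar is 1 library and the colours are the genes. The sum of the JUN family is higher in every hypoxic library than in normoxia, and JUN makes up 51.3 to 55.3% of it in eKD2; FOSB and FOSL1 are barely visible.

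In the FOS family, FOS and FOSL2 made up nearly all of the RNA. FOS, the classical immediate early partner of JUN, lies on chromosome 14 at 75745529 to 75748933, plus strand, without an overlapping gene. Its level was 16.6 and 18.9 FPKM in control normoxia, 21.3 and 10.6 in control hypoxia, 18.9 and 24.8 in eKD1 and 14.1 and 20.8 in eKD2. The control hypoxia duplicates enclosed both normoxia values, so FOS had no order between these groups.

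FOSL2, also known as Fra-2, a FOS protein without the strong activation domain of FOS, lies on chromosome 2 at 28615315 to 28640184, plus strand, and overlaps the antisense RNA FOSL2-AS1 and another long noncoding RNA. It was at 1.71 and 3.08 FPKM in control normoxia, 6.01 and 7.55 in control hypoxia, 7.75 and 7.68 in eKD1 and 10.4 and 21.1 in eKD2. The 4 pairs lay apart in the same order as those of JUN, but the eKD2 duplicates differed widely. Between control hypoxia and eKD1 the gap was narrow, at 7.55 against 7.68 FPKM, with a change of 0.17 (limma adjusted p 0.577). Of all tested genes, 35.9%, 27.6% and 31.9% lay apart upward at these steps in turn, and the share with the whole order was not computed. FOSL2 made up 11.5 ± 3.36% of the FOS family FPKM in control normoxia, 31.1 ± 13.3% in control hypoxia, 25.9 ± 4.08% in eKD1 and 45.4 ± 6.65% in eKD2 (SD, n = 2). The family sum was 18.8 to 22.2 FPKM in control normoxia and 18.6 to 42.2 FPKM in the hypoxic libraries. The JUN family exceeded it in every library, by 2.12 to 6.22 times.

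FOSB and FOSL1, the other FOS genes, were near the bottom of the table. FOSB was at 0.306 and 0.0739 FPKM in control normoxia, 0.0564 and 0.315 in control hypoxia, 0.193 and 0.71 in eKD1 and 0.444 and 0.101 in eKD2. FOSL1, known as Fra-1, was at 0.116 and 0.158, 0.267 and 0.208, 0.099 and 0.218, and 0.609 and 0.173 FPKM in the same order. The duplicates of FOSB differed by several times in each group, and no order of the groups can be read from either gene. FOSB overlaps ERCC1 on the other strand.

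EGR1, a zinc finger factor that answers growth signals through SRF, was also close to silent. Its promoter is the one shown with 2 CArG boxes. It was at 0.547 and 0.548 FPKM in control normoxia, 0.36 and 0.318 in control hypoxia, 0.402 and 0.227 in eKD1 and 0.465 and 0.288 in eKD2. Both normoxia libraries lay above all 6 hypoxic ones. For control hypoxia alone, 34.5% of all tested genes lay below normoxia in this way, and the share for all 6 was not computed. In a fit without the filter on low values, the EGR1 change in hypoxia was -0.21 (SE 0.0351) with a limma adjusted p of 0.0755, and the adjusted p of FOSB, FOSL1 and EGR1 in all other cases was 0.191 or higher.

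IER2, a nuclear regulator, and IER3, a regulator of survival and ERK signalling, were both expressed. IER2 was at 11.9 and 12.2 FPKM in control normoxia, 21.7 and 19 in control hypoxia, 19 and 20.3 in eKD1 and 17 and 16.5 in eKD2. IER3 was at 9.71 and 12.9, 19.9 and 18.4, 20.3 and 27.7, and 20.4 and 21.7 FPKM in the same order. For both genes every hypoxic library was above both normoxic libraries. For control hypoxia alone this held for 35.9% of all tested genes, and the share for all hypoxic libraries was not computed. IER2 lies on chromosome 19 at 13261225 to 13265725 and IER3 on chromosome 6 at 30710976 to 30712325, and each overlaps 2 long noncoding RNAs on the other strand.

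The comparison of control hypoxia with control normoxia asked how these genes stood after 16 h of low oxygen. All 3 JUN genes, FOSL2, IER2 and IER3 were higher in hypoxia, 6 of the 7 tested genes, and FOS was not called. Over all tested genes, 16.2% were called higher and 16.0% lower. The same 6 genes had both hypoxia libraries above both normoxia libraries, as had 35.9% of all tested genes, and 0 of the 7 lay below, against 34.5%. The median change of the 7 genes was 1.01 and that of all tested genes 0.01.

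JUND rose by 1.29 (SE 0.255, interval 0.57 to 2.01, limma adjusted p 0.0329), a mean ratio of 2.43 in FPKM. JUNB rose by 1.05 (SE 0.135, interval 0.67 to 1.43, adjusted p 0.015) and JUN by 1.01 (SE 0.102, interval 0.72 to 1.30, adjusted p 0.0106). The intervals of the 3 JUN genes overlapped, and the JUN shares of the family overlapped between control normoxia and control hypoxia. FOSL2 rose by 1.22 (SE 0.272, interval 0.45 to 1.99, adjusted p 0.0417). IER2 rose by 0.71 (SE 0.111, interval 0.39 to 1.02, adjusted p 0.0213) and IER3 by 0.72 (SE 0.169, interval 0.24 to 1.20, adjusted p 0.0464). The FOS change was -0.22 with an interval of -1.24 to 0.79 (adjusted p 0.666), wide enough to hold the changes of IER2 and IER3. Leaving out any 1 of the 4 libraries left 0 of the 15372 genes called by limma, with 4934 to 6167 at an unadjusted p under 0.05. The changes were then 0.95 to 1.07 for JUN, 0.91 to 1.19 for JUNB, 0.95 to 1.62 for JUND, 0.93 to 1.52 for FOSL2, 0.62 to 0.80 for IER2 and 0.53 to 0.91 for IER3, with adjusted p between 0.0626 and 0.226.

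**Figure D3:**
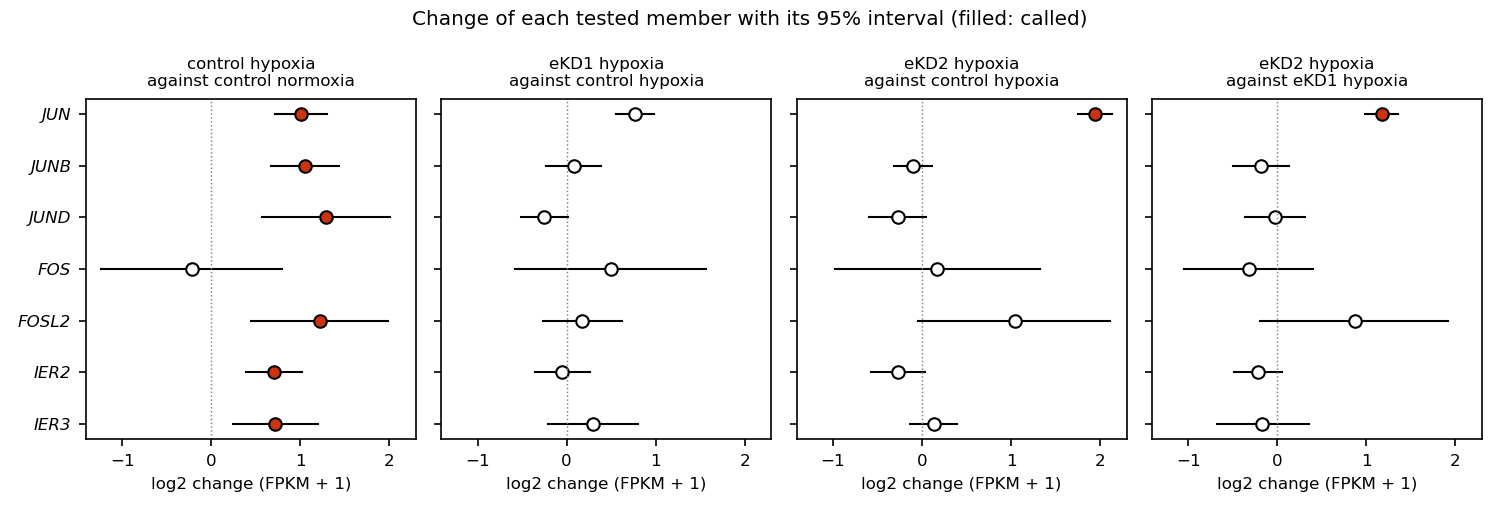
Log2 change of FPKM + 1 (horizontal axis) for the 7 tested genes in the 4 comparisons; points are limma estimates, lines 95% intervals, and filled points passed an adjusted p under 0.05. In hypoxia 6 genes are filled, all to the right of 0; in eKD2, JUN alone is filled, at 1.94 against control hypoxia and at 1.17 against eKD1.

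Setting each eKD group beside control hypoxia asked how these genes stood under repression of the enhancer in low oxygen. Each guide was in its own selected pool, so an effect of the guide and a difference between pools cannot be told apart. Both eKD comparisons share the control hypoxia libraries with each other and with the hypoxia comparison, so their values are not independent of it. JUN was 1.73 times its control hypoxia mean in eKD1 and 3.97 times in eKD2. JUN passed the test in eKD2 and not in eKD1. JUNB, JUND, FOS, FOSL2, IER2 and IER3 did not pass in either.

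In eKD1, 0 of the 7 genes were called by limma, and 1 of 7, JUN, had an unadjusted p under 0.05, as had 21.7% of all tested genes. Over all tested genes, 0.0130% were called higher and 0.0520% lower. JUN differed by 0.77 (SE 0.0754, interval 0.55 to 0.98), with an unadjusted limma p of 0.000678 and an adjusted p of 0.102. With a spread estimated from all 8 libraries, 1 of 7 was called, JUN, with the same change and an adjusted p of 0.0142. Both eKD1 libraries were above both control hypoxia libraries for JUN, FOSL2 and IER3, as for 27.6% of all tested genes, and below for JUND, as for 26.0%. The median change was 0.17 for the 7 genes and 0.00 for all genes. The interval was -0.23 to 0.39 for JUNB and -0.51 to 0.02 for JUND, both below the JUN interval.

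In eKD2, 1 of the 7 genes was called higher, JUN, and 0 lower, while 5.80% of all tested genes were called higher and 3.81% lower. JUN rose by 1.94 (SE 0.068, interval 1.75 to 2.13, limma adjusted p 0.0132), rank 73 by rise among the 15372 tested genes. FOSL2 differed by 1.04 (SE 0.379, interval -0.04 to 2.11, adjusted p 0.163), and by 0.56 to 1.51 when 1 library was left out. The interval was -0.31 to 0.11 for JUNB and -0.59 to 0.04 for JUND, which lie below the JUN interval. FOS differed by 0.17 with an interval of -0.98 to 1.33 (adjusted p 0.803). JUN, FOSL2 and IER3 had both eKD2 libraries above both control hypoxia libraries, as had 35.8% of all genes, and JUNB, JUND and IER2 had both below, as had 26.4%. The median change was 0.13 for the 7 genes and 0.05 for all genes. Without any 1 of the 4 libraries, JUN differed by 1.90 to 1.98 with an adjusted p of 0.15 to 0.205, and 0 genes of the table were called by limma, with 3246 to 4016 at an unadjusted p under 0.05.

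The guides were compared directly because they target the same enhancer and LOXHD1 was low with both. As each guide was in its own pool, the comparison is of pools as well as of guides. JUN was higher in eKD2 than in eKD1 by 1.17 (SE 0.0665, interval 0.98 to 1.36, limma adjusted p 0.0424), a mean ratio of 2.29 in FPKM. It was the 1 called gene of the 7, where 0.286% of all tested genes were called higher and 0.117% lower. LOXHD1 differed between the guides by -0.43 (interval -0.77 to -0.08, limma adjusted p 0.162) and was not called. Both eKD2 libraries of LOXHD1 were below both eKD1 libraries. JUN and FOSL2 had both eKD2 libraries above both eKD1 libraries, as had 31.9% of all genes, and JUNB and IER2 had both below, as had 23.3%. FOSL2 differed by 0.87 (SE 0.368, interval -0.19 to 1.92, adjusted p 0.267), and by 0.39 to 1.34 when 1 library was left out. The median change was -0.17 for the 7 genes and 0.05 for all genes. Without any 1 of the 4 libraries JUN differed by 1.14 to 1.21 with an adjusted p of 0.26 to 0.319, with 0 genes called by limma and 2286 to 2809 at an unadjusted p under 0.05, and without the variance trend the JUN adjusted p was 0.0878.

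Other genes of the pathway were read from fixed lists. Over all tested genes, limma called 16.2% higher and 16.0% lower in hypoxia, 5.80% and 3.81% in eKD2, and 0.286% and 0.117% in eKD2 against eKD1. An unadjusted limma p under 0.05 was held by 21.7% of all tested genes in eKD1 and by 23.6% in eKD2 against eKD1. These shares stand beside the counts of every list below. The list of other immediate early genes, which are induced by the same signals as FOS and EGR1, had 33 of 38 genes tested. In hypoxia 13 of them rose and 5 fell, in eKD1 0 were called by limma (12 at an unadjusted p under 0.05), in eKD2 11 rose and 1 fell, and 2 rose and 0 fell in eKD2 against eKD1. The median changes were 0.56, 0.26, 0.51 and 0.23, beside 0.01, 0.00, 0.05 and 0.05 over all genes. These counts too fell to 0 when any 1 library was left out. The summed level of the list was 815 to 850 FPKM in control normoxia, 872 to 881 in control hypoxia, 1050 to 1063 in eKD1 and 1486 to 1564 in eKD2.

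The largest rise of the list in hypoxia was that of ATF3, a stress-induced factor that pairs with JUN proteins and is also on the list of dimer partners. ATF3 was at 7.27 and 5.31 FPKM in control normoxia and 36.4 and 38 in control hypoxia. In eKD1 it was at 29.9 and 38.6 FPKM and in eKD2 at 180 and 151. It rose by 2.40 in hypoxia (limma adjusted p 0.00805). Against control hypoxia it differed by -0.13 in eKD1 (limma adjusted p 0.655) and rose by 2.12 in eKD2 (adjusted p 0.0251). In eKD2 against eKD1 ATF3 differed by 2.25 and was not called (limma adjusted p 0.0529). CYR61, a secreted matrix protein, rose by 2.26 in hypoxia and was higher in eKD2 than in eKD1 by 1.55, at 136 and 135 against 45.7 and 45.4 FPKM. PPP1R15A, a subunit that ends the block of translation in stress, was higher in eKD2 than in eKD1 by 2.02, at 98.3 and 96.2 against 21.8 and 24.7 FPKM. KLF2, a zinc finger factor, rose by 2.02 in eKD2. In the other direction, TRIB1, a pseudokinase, fell by 1.50 and MYC by 0.56 in hypoxia, and IER5L fell by 0.55 in eKD2. EGR2, the relative of EGR1, was named after its values were seen: it was at 4.81 and 4.72 FPKM in control normoxia and 0.497 and 0.456 in control hypoxia, and fell by 1.96 (adjusted p 0.00809).

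The dimer partners, leucine zipper factors of the ATF, MAF and NRF groups, had 15 of 18 genes tested. In hypoxia 7 rose and 1 fell, in eKD1 0 were called (3 at an unadjusted p under 0.05), in eKD2 4 rose and 0 fell, and 1 rose in eKD2 against eKD1. The median changes were 0.32, 0.04, 0.54 and 0.25. The hypoxia count of rises was 3 without the filter or with equal FPKM totals. JDP2, a partner of JUN that usually represses, was called in the same comparisons as JUN. It was at 9.94 and 7.99 FPKM in control normoxia, 20.8 and 16.6 in control hypoxia, 15.1 and 15.9 in eKD1 and 56.9 and 62.7 in eKD2, and was higher in eKD2 than in eKD1 by 1.88 (limma adjusted p 0.0329). Unlike the JUN pairs, the eKD1 pair of JDP2 lay below the control hypoxia pair. NFE2L2, known as NRF2, fell by 0.28 in hypoxia.

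**Figure D4:**
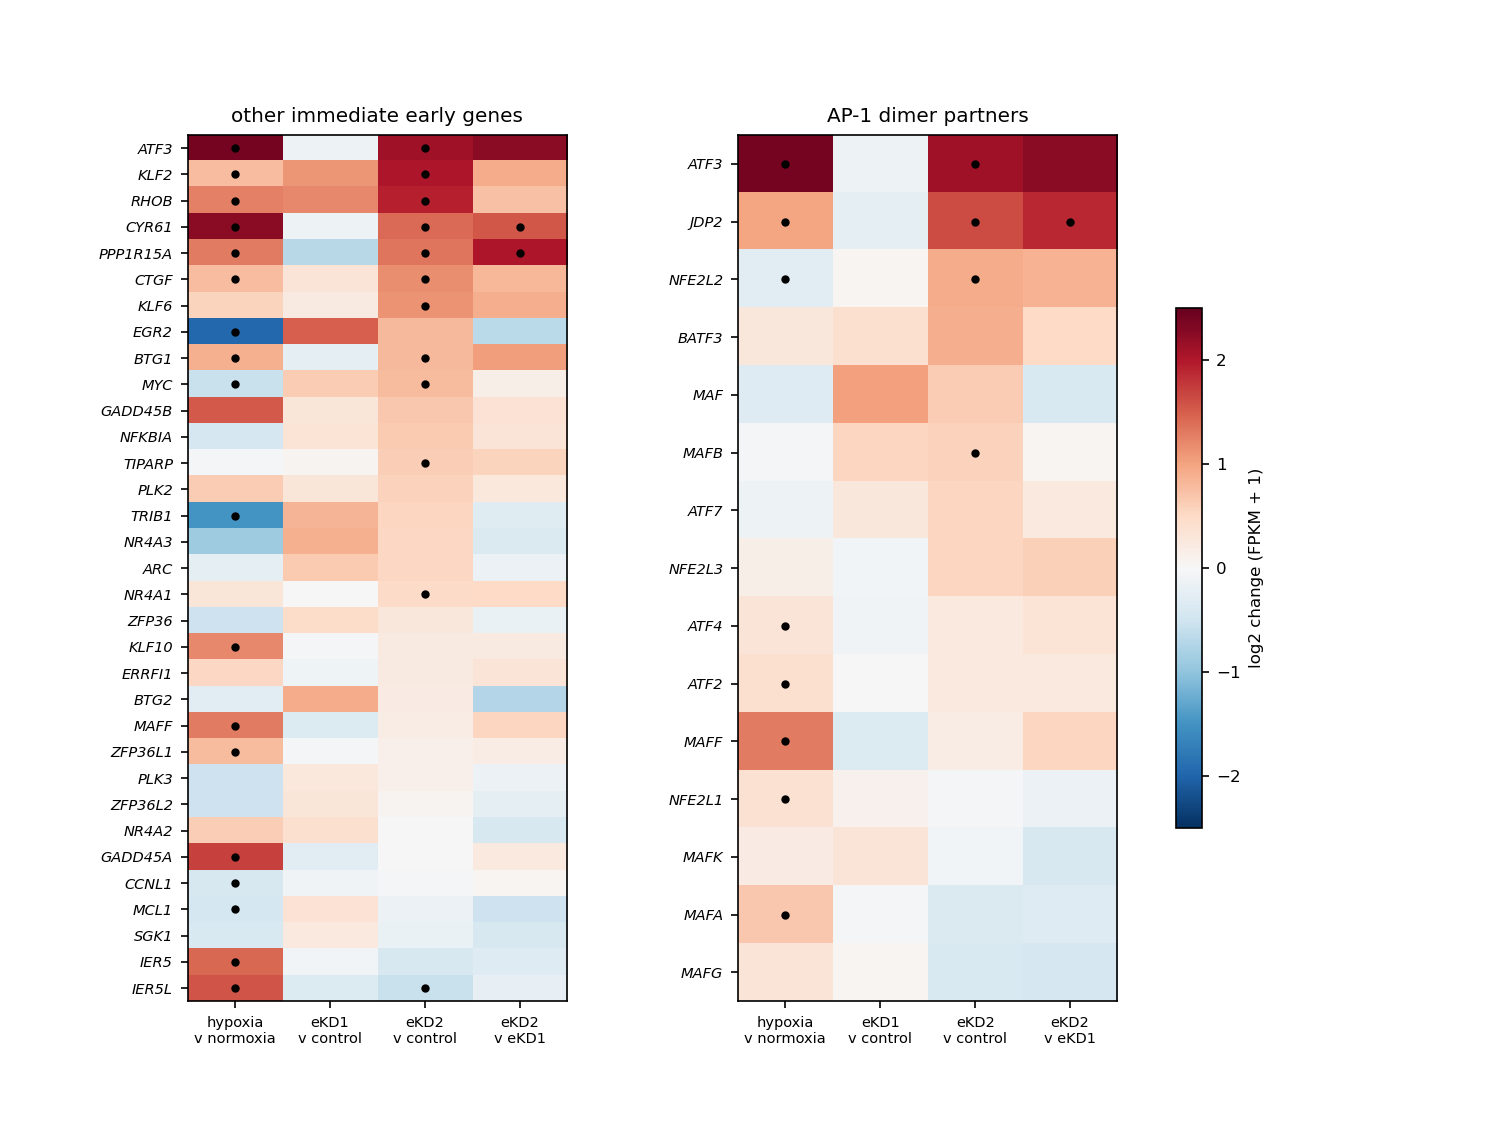
Log2 change of FPKM + 1 (colour, red higher and blue lower, cut at 2.5 either way) for the tested genes of the lists of other immediate early genes (left) and AP-1 dimer partners (right) in the 4 comparisons; black dots mark genes called by limma. In the right panel ATF3 and JDP2 have the largest changes in eKD2 against control, at 2.12 and 1.63, and the eKD1 column has no dots in either panel.

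The MAP kinase cascade and SRF factors, which switch on FOS and EGR1, were all tested (28 of 28). In hypoxia 6 rose and 2 fell, and limma called 0 of the 28 genes in eKD1 (5 at an unadjusted p under 0.05). Between the guides 0 were called (7 at an unadjusted limma p under 0.05, beside 23.6% of all tested genes). The median changes were 0.08 in hypoxia, -0.06 in eKD1, 0.19 in eKD2 and 0.10 in eKD2 against eKD1. RPS6KA1, a kinase below ERK, and ELK4, an SRF partner, rose by 1.29 and 1.16 in hypoxia, while NRAS fell by 0.72 and ELK1 by 0.39. Of the feedback inhibitors of MAP kinases and of EGR1, such as the EGR1 corepressors NAB1 and NAB2, 14 of 19 were tested. In hypoxia 4 of these rose and 1 fell, in eKD1 0 were called (5 at an unadjusted p under 0.05), in eKD2 2 rose, and 0 were called between the guides (5 at an unadjusted p under 0.05), with medians of 0.23, 0.16, 0.33 and 0.31. DUSP1 and DUSP14, phosphatases of MAP kinases, rose by 0.62 and 0.42 in hypoxia and DUSP7 fell by 0.52. DUSP16 and DUSP8, phosphatases known for acting on JNK, rose by 1.78 and 1.56 in eKD2.

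Known target genes of AP-1 had 10 of 20 genes tested. In hypoxia 5 rose and 1 fell, in eKD1 0 were called (5 at an unadjusted p under 0.05), in eKD2 1 rose and 1 fell, and 0 were called between the guides (4 at an unadjusted p under 0.05). The medians were 0.33, -0.17, -0.09 and -0.06. VIM, the filament protein vimentin, was at 93.3 and 93.1 FPKM in control normoxia, 285 and 277 in control hypoxia and 210 and 215 in eKD2, a rise of 1.58 followed by a fall of 0.40. FN1, fibronectin, rose by 0.96 in hypoxia. CCND1, cyclin D1, fell by 0.21 in hypoxia and rose by 0.31 in eKD2. The called targets moved in both directions in eKD2, and a link to the JUN level was not tested.

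For FOS, JUN and EGR1, the genes with the most similar pattern over the 8 libraries were found by the Pearson correlation of log2(FPKM + 1) among 10680 genes, as a description. For JUN they were AGTPBP1 (r = 0.992), SNAPC1 (r = 0.992) and CTGF (r = 0.991). SNAPC1 was at 8.35 and 9.52 FPKM in control normoxia, 16.1 and 15.3 in control hypoxia, 20.3 and 20.8 in eKD1 and 47.3 and 42.6 in eKD2, the same order of groups as JUN. For FOS they were MRPS11 (r = 0.935), FAM217B (r = 0.880) and ECE2 (r = 0.879). In control hypoxia each was lower in replicate 2 than in replicate 1, as FOS was. The extent differed, with MRPS11 at 73.1 and 63.5 FPKM and FOS at 21.3 and 10.6. For EGR1, which is below 1 FPKM, they were SNRPE (r = 0.966), ARMC1 (r = 0.962) and MREG (r = 0.961). The libraries are the same for both genes of a pair, so depth and group are shared.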

How the data were processed

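RNA was measured in 8 libraries, grouped by sample title. The deposited values are FPKM, which the authors obtained with STAR alignment to GRCh37 (single-end reads, poly-A selection) and Cuffnorm. Read totals are not in the table, so absolute depth is unknown and neither counting intervals nor detection floors were computed. The values are not counts, and limma 3.58.1 in R 4.3.3 was applied to log2(FPKM + 1) of 15372 genes that reached 1 FPKM in 2 or more of the 8 libraries. Each comparison of 2 against 2 libraries was fitted alone, with a variance trend, two-sided p and Benjamini-Hochberg adjustment. The fit was tested on simulated data. The members, gene lists and tests were chosen with earlier results of these data known. From each list, up to 2 called rises and 2 falls per comparison were named, at a mean of at least 5 FPKM and with groups apart. Positions are from GENCODE (GRCh37) and promoters from RefSeq (GRCh38.p14). The calls in the list of MAP kinase and SRF genes in eKD2 against control hypoxia are not reported here. The alternatives were another pseudocount, other filters, other scalings, a shared fit, a replicate block, no variance trend and omission of each library. Counts of list genes called higher were recomputed under the same alternatives, a step added after seeing the data.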

Additional observations from a re-analysis of the deposited data

Results flagged for a closer look

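JUN was singled out because its change differed between the 2 guides by a direct test: it was higher in eKD2 than in eKD1 by 1.17 on the log2 scale (limma adjusted p 0.0424). Each guide was in its own pool, so guide and pool cannot be told apart. JUN was at 87.8 and 83.3 FPKM in eKD2 and at 36.7 and 38 FPKM in eKD1.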

How the results depend on the processing

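Of the 7 tested genes, 6 were called in hypoxia and 3 without the filter on low values, and leaving out 1 library gave 0 in each comparison (0 to 0). At an unadjusted limma p under 0.05 these smaller fits had 3 to 6 of the 7 genes in hypoxia, beside 4934 to 6167 of all 15372, and 1 to 2 in each eKD comparison, beside 1808 to 4016 of all. The shared fit of all 8 libraries called 1 gene in eKD1. No variance trend gave 0 in eKD2 against eKD1. The replicate block gave 4 called members in hypoxia, where IER2 (adjusted p 0.0568) and IER3 (0.0858) were lost, 0 in eKD2 (JUN adjusted p 0.0925) and 0 in eKD2 against eKD1 (JUN 0.207). The labels do not say whether the replicate numbers pair the samples, and deviations of same-numbered libraries correlated at -0.06 to 0.13. The block called 2570 genes in hypoxia, against 4946 without it, and 0 of the 15372 genes in the other comparisons, against 10, 1477 and 62, with 2707, 4517 and 3084 at an unadjusted limma p under 0.05.

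Directions turned for changes that were not called. FOS ranged from -0.70 to 0.25 in hypoxia and from -0.30 to 0.65 in eKD2 when 1 library was left out, passing through -0.09. JUNB in eKD1 ranged from -0.03 to 0.19. IER2 in eKD1 was 0.02 with equal FPKM totals and -0.14 to 0.04 with a library left out. JUND in eKD2 against eKD1 was 0.01 with equal totals and -0.14 to 0.09 (0.05 among them) with a library left out, and IER3 there was -0.38 to 0.05. FOSL2 lost its call in hypoxia at a pseudocount of 0.1 (adjusted p 0.0518), without the filter (0.134) and with equal totals (0.0559). IER3 lost it at the pseudocount of 0.1 (0.0505), with equal totals (0.0878), without the filter and without the trend (0.0575), and JUND without the filter (0.117). Equal totals moved the median of all genes in hypoxia to -0.19, and relative to it JUN was at 0.97. JUN was higher in every setting of every comparison. Over all genes, the shared fit called 761 genes in eKD1, 2601 in eKD2 and 1391 in eKD2 against eKD1, no filter called 3024 in hypoxia, 206, 853 and 260, no trend called 6, 28 and 5 in the 3 eKD comparisons, and a mean of at least 5 FPKM called 105 in eKD2 against eKD1. In eKD2, immediate early genes called higher numbered 6 without the filter and 1 without the trend, and dimer partners called higher 2 and 0. The cause of these losses was not tested. A fit with 1 library left out also holds fewer libraries.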

Other observations

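Heat shock genes, the chaperones that also respond to cell handling, were all tested (10 of 10). In hypoxia 2 rose and 5 fell, in eKD1 0 were called by limma (4 at an unadjusted p under 0.05), in eKD2 0 rose and 6 fell, and in eKD2 against eKD1 2 fell. Their summed level was 5105 to 5257 FPKM in control normoxia, 3512 to 3604 in control hypoxia, 3978 to 4209 in eKD1 and 1846 to 1874 in eKD2, so eKD2, where JUN was highest, was lowest. HSPH1 fell by 1.60 and HSP90AA1 by 0.68 in hypoxia, HSPA8 fell by 1.38 in eKD2, and DNAJA1 was lower in eKD2 than in eKD1 by 1.34 (log2 change -1.34). HSPA1A and HSPA1B, which rose by 0.61 and 0.71 in hypoxia, are near-identical copies, and how reads are shared between them is uncertain. The part of this difference in the AP-1 values was not tested.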
